A study of Mus musculus with 9 samples.

Results

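The genes described here build the intercellular bridges of male germ cells: Tex14, Cep55, Rbm44, Racgap1, Ect2 and Anln. They were chosen by name, and every row of the deposited table that carries 1 of these names, in any letter case, was taken. That gave 13 rows for the 6 genes, out of 24305 gene names in the table. The table compares testis RNA at postnatal day 10 of 3 samples with the genotype label Lin28a knockout and 3 labelled wild type, all of strain C57BL/6. The titles of the knockout samples carry the term cKO. The allele, the cells in which it was removed and whether samples came from separate animals are not given in any source used here. A further 3 samples, of RNA recovered with the LIN28A protein, were not analysed here. LIN28A binds RNA, keeps let-7 microRNA precursors from being matured and, after birth, is a protein of undifferentiated spermatogonia in the testis.

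Most dividing cells end division by cutting the thin link between the daughters, a step called abscission. Male germ cells do not take it: the midbody, the remnant of the spindle midzone in that link, is turned into a stable open bridge, so that clones of spermatogonia and spermatocytes share cytoplasm. TEX14 is the germ cell protein needed for this. It binds CEP55, the midbody protein that otherwise recruits TSG101 and ALIX (the product of Pdcd6ip) and, through them, the ESCRT machinery that cuts membranes. RBM44 is a germ cell RNA-binding protein of the bridge that binds TEX14. RACGAP1 forms centralspindlin together with the kinesin KIF23, ECT2 is the exchange factor that centralspindlin brings to the midzone to activate RHOA, and anillin (Anln) is the scaffold that ties actin, myosin and septins together in the cleavage furrow. These last genes and Cep55 are not confined to germ cells. The testis RNA can therefore also hold their transcripts from dividing somatic cells, among them Sertoli cells at this age.

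The promoter sequences are shown first, because the list joins a germ cell gene with genes whose expression follows the cell cycle. The cell cycle genes homology region, or CHR, is a promoter element through which MuvB complexes time expression to late cell cycle stages. It was searched as TTTGAA or TTCGAA on both strands, in RefSeq windows of assembly GRCm38.p6 that run from 250 bases before to 50 bases after a transcript start. A window was matched by symbol for 5 of the 6 members, and Rbm44 was not matched. All 5 held at least 1 match, against 21.7% of 27025 genes with a window and 19.2% of all 32851 windows. The stretches around the matches are printed in the sense of the gene, 5′ to 3′, with every CHR match in capitals. Kif23 is added as the partner of Racgap1, 1 of 2 matches is shown for Ect2, and the Anln stretch holds both of its matches.
Tex14 (chr11:87404876-87404905, plus strand): tgctgtgaaaaaTTCAAAaaacccttgtag
Cep55 (chr19:38054996-38055025, plus strand): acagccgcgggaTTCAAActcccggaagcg
Racgap1 (chr15:99651634-99651663, minus strand): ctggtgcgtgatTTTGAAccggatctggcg
Ect2 (chr3:27153975-27154004, minus strand): ccgtttaccggaTTTGAAacacactcacaa
Anln (chr9:22389161-22389190, minus strand): tgaaaTTCAAAtTTTGAAcggccgtggtag
Kif23 (chr9:61946780-61946809, minus strand): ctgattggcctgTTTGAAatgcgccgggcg

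The matches lay at different distances from the annotated start. Counting from the most upstream start of each gene, that of Racgap1 began 6 bases into the transcribed part, that of Kif23 3 bases in, and that of Cep55 25 bases in. Anln had a pair of matches, beginning 22 and 29 bases into the transcribed part. In Cep55 the same letters lie 33 bases before the other annotated start. The Tex14 match began 177 bases upstream of the start, the farthest of the members. Ect2 held a match that began 114 bases upstream and another beginning 40 bases into the transcribed part.

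Ect2 also held the most matches to the CCAAT box, the binding motif of NF-Y, which was searched as CCAAT on both strands and shares no base with any CHR match in these windows. It had 3, Racgap1 had 1 in reverse, and Tex14, Cep55 and Anln had 0. Kif23 also had 1. Thus 2 of 5 members (40.0%) held a CCAAT box, and of all genes with a window 41.1% did. In the central spindle list 7 of 9 genes (77.8%) held 1, and in the proliferation list 14 of 15 (93.3%). The other gene lists lay between 16.7% in the endothelial and 75.0% in the undifferentiated spermatogonia list, and no difference between lists was tested. The Ect2 stretch is shown because the CHR match and a pair of CCAAT boxes, in capitals, follow each other in it. It covers the 120 bases before the most upstream start.
Ect2 upstream (chr3:27153879-27153998, minus strand): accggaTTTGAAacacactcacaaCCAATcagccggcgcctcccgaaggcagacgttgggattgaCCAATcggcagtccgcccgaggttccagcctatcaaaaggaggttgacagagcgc

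Across the gene lists used below, CHR matches were present in 8 of 9 central spindle genes with a window and in 12 of 15 general proliferation genes. They were present in 1 of 14 germ cell core genes, 3 of 19 meiotic prophase genes, 2 of 15 contractile ring genes, 3 of 17 ESCRT and abscission genes and 3 of 9 septins. The other gene lists lay between 12.5% in the Sertoli (1 of 8) and 42.9% in the peritubular and stromal list (3 of 7). No difference between lists was tested. A match of these letters is a description of the sequence and does not show that a factor binds there.

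**Figure D1:**
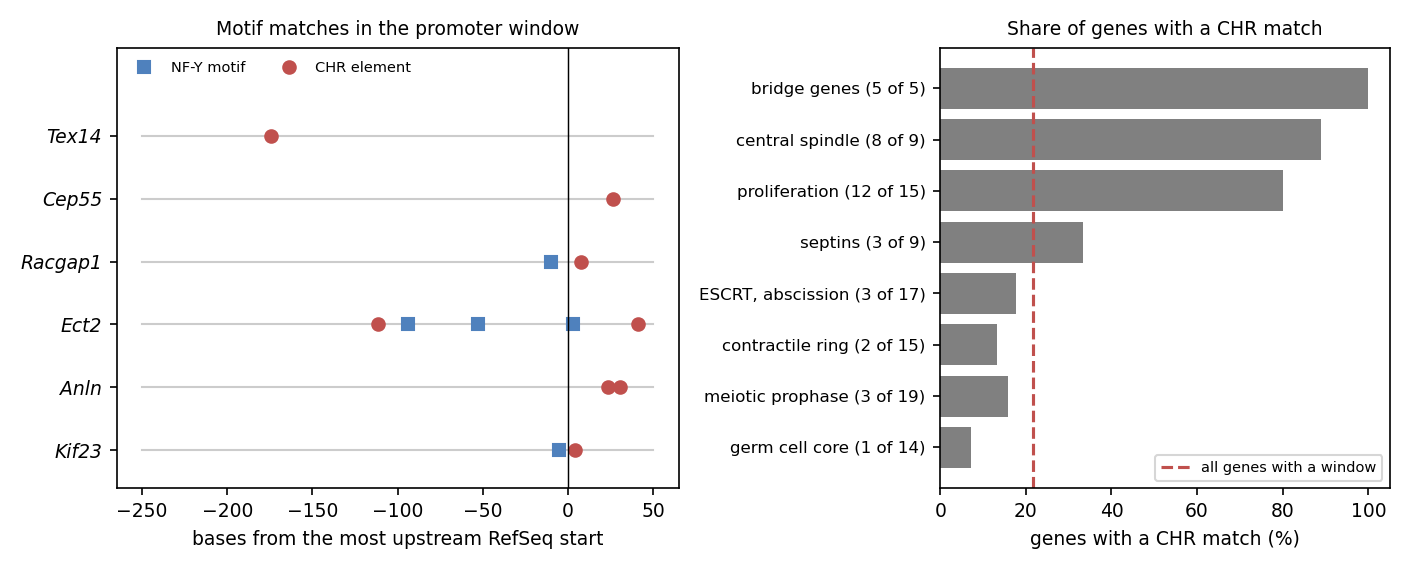
Left, positions of CHR matches (circles) and CCAAT box, or NF-Y motif, matches (squares) in the promoter windows of 5 members and Kif23, in bases from the most upstream RefSeq start, on an axis from 250 bases upstream to 50 bases downstream. Right, percent of genes with a CHR match in each list shown, with counts beside the names. The dashed line marks the 21.7% of all genes. The 5 bridge genes with a window all hold a match, and lists not shown are given as a range in the text.

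The expression table gives 1 pooled value per group in FPKM (fragments per length of transcript and per total of mapped fragments). The columns are named case and control. No spread between samples, no test across samples and no sequencing depth can be given. The case column was read as the knockout samples from its name, and where a pair of values stands side by side below, the case column comes first. Lin28a itself was at 23.4 FPKM in the case column and 8.82 FPKM in the control column, 2.66-fold higher (the authors' deposited table, q = 0.00191). The targeted gene thus goes against the label of its column, so every direction below is between the columns as labelled. Whether the columns were named the wrong way round cannot be told from the sources used here. If they were, every direction and every rank of a difference below would turn, while the order of the member levels would stay. Its paralog Lin28b was at 6.95 and 6.59 FPKM (the authors' deposited table, p = 0.794).

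All 6 bridge genes were expressed, and none of their rows was called. With the rows of a gene summed, 5 of the 6 were lower and 1 was higher in the case column. Of all 13107 genes at a mean FPKM of 1 or more, 39.2% were lower. The summed differences ran from -0.22 to 0.05 on the scale of log2(FPKM + 1), case minus control, with a median of -0.07 beside 0.03 over all genes. The fold was below 1.2 in all 6 genes, while 16.3% of genes differed by at least 1.2-fold in 1 direction or the other. Of the 9 member rows that the authors tested, 0 had a q-value under 0.05 (0.0514% of all 13629 tested rows did) and 1 had an unadjusted p under 0.05 (1.28% of all did), in the authors' deposited table. Which program made this test is not stated in the sources used here.

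Racgap1 was the most abundant member per transcript length, at 49.5 FPKM in the case column and 50.9 FPKM in the control column, above 89.5% of the genes by its mean. Tex14 followed at 23.9 and 28.0 FPKM, and Anln at 19.0 and 18.3 FPKM. Cep55 stood at 17.3 and 18.2 FPKM and Ect2 at 16.5 and 17.4 FPKM. Rbm44 was the least abundant, at 12.9 and 14.0 FPKM, which was still above 54.6% of the genes. The order of the 6 levels was the same in both columns. Anln, Cep55 and Ect2 lay within 2.44 FPKM of each other in the case column and within 0.908 FPKM in the other, and without a spread between samples their order cannot be told from a tie.

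**Figure D2:**
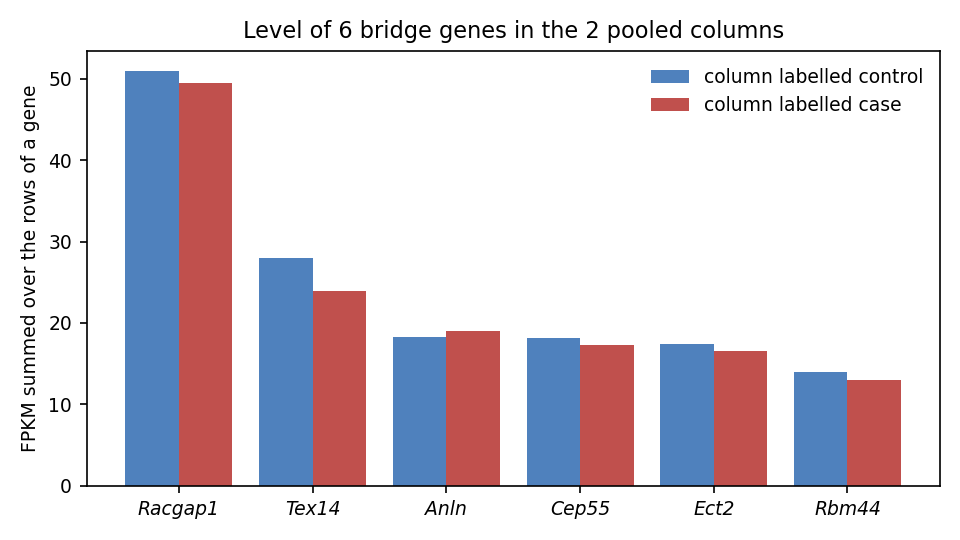
FPKM, summed over the rows of each gene, in the control column (blue) and the case column (red) for the 6 bridge genes; each bar is 1 pooled value of the authors, so there are no error bars. Racgap1 stands highest at about 50 FPKM in both columns, and Tex14 has the widest gap, 23.9 against 28.0 FPKM.

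Of the germ cell members, Tex14 showed the widest difference of the 6. Its row NM_031386 (mm10 chromosome 11, 87405065 to 87555823) was 1.17-fold lower in the case column (the authors' deposited table, p = 0.348). The difference of -0.22 was below that of 94.1% of all genes. Of the 17 germ cell core genes described below, Tex101 (-0.92), Taf4b (-0.30), Stk31 (-0.27), Mov10l1 (-0.25) and Rnf17 (-0.23) lay lower still. In that list 4 genes were higher in the case column. The second Tex14 row, NM_001199293, was listed at 0 FPKM in both columns and was not tested. Rbm44 has a single row, NM_001033408 (chromosome 1, 91145103 to 91170795), which was 1.08-fold lower in the case column (the authors' deposited table, p = 0.680).

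These values were set beside other germ cell transcripts of the same columns. Dazl, an RNA-binding protein of the whole germ line, was at 192 and 222 FPKM, so the ratio of Tex14 to Dazl was 0.125 in the case column and 0.126 in the other. The ratio of Tex14 to Ddx4, a germ cell RNA helicase, was 0.329 and 0.385. For Rbm44 the ratio to Dazl was 0.0674 and 0.0632, and to Ddx4 it was 0.178 and 0.192. The direction of the Rbm44 ratio therefore turned with the germ cell gene it was read against, while that of Tex14 was lower in the case column against both, by 0.0019 against Dazl.

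Of the members that are not confined to germ cells, Cep55 is the direct partner of TEX14. Its 3 rows share the locus chromosome 19, 38055025 to 38074425. The main row, NM_028293, was at 14.0 and 13.8 FPKM (the authors' deposited table, p = 0.949). NM_001164362 was at 1.93 and 2.06 FPKM, and NM_028760 at 1.40 and 2.32 FPKM (the authors' deposited table, p = 0.890 and p = 0.280 in turn). The lower sum in the case column came from the minor rows, and the main row alone was marginally higher there.

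Both centralspindlin genes were lower in the case column, Racgap1 by 1.03-fold when its rows were summed and Kif23 by 1.09-fold. Kif23, not a member, was at 27.2 and 29.5 FPKM (the authors' deposited table, p = 0.631). The ratio of Racgap1 to Kif23 was 1.82 in the case column and 1.72 in the control column. Within Racgap1 (chromosome 15, 99620496 to 99651656), the rows went different ways. The main row, NM_001253808, was at 40.8 FPKM in the case column and 45.6 FPKM in the other, 1.12-fold lower (the authors' deposited table, p = 0.520). The row NM_001253809 was at 5.97 and 2.96 FPKM, 2.02-fold higher (the authors' deposited table, p = 0.0420, not passing adjustment), and was the only tested member row with p under 0.05. The third, NM_012025, was at 2.75 and 2.39 FPKM (the authors' deposited table, p = 0.731).

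The row NM_001253809 thus made up 12.0% of the Racgap1 FPKM in the case column and 5.81% in the control column, while the main row made up 82.4% and 89.5%. Such shifts were common in the table. Of 1775 genes with at least 2 rows at a mean FPKM of at least 1, 25.6% had a row whose share moved by as much as the 7.08 percentage points of the main Racgap1 row. Rows in both directions were present in 62.1% of these genes. The 3 rows overlap on the genome, and how reads common to them were divided is not stated in any source used here.

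Ect2 (chromosome 3, 27097222 to 27153878) has 3 rows, all with the status FAIL, so no p-value of the authors can be read for this gene. NM_001177626 was at 11.0 FPKM in the case column and 11.1 FPKM in the other. NM_001177625 was at 4.08 and 4.94 FPKM, and NM_007900 at 1.49 and 1.30 FPKM. The largest row therefore differed by 1.01-fold. Anln, row NM_028390, was the single member with the higher value in the case column, 1.04-fold (the authors' deposited table, p = 0.829). The position deposited for it, chromosome 9, 22055460 to 22389206, is shared with 21 rows of other genes and spans 334 kb. In the RefSeq annotation another protein-coding gene overlaps Anln, and 2 noncoding or pseudogene entries overlap Ect2, 1 overlaps Rbm44, 1 overlaps Cep55 and 9 overlap Tex14. No source used here states whether the counting used strand, so reads from such overlaps cannot be told apart.

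**Figure D3:**
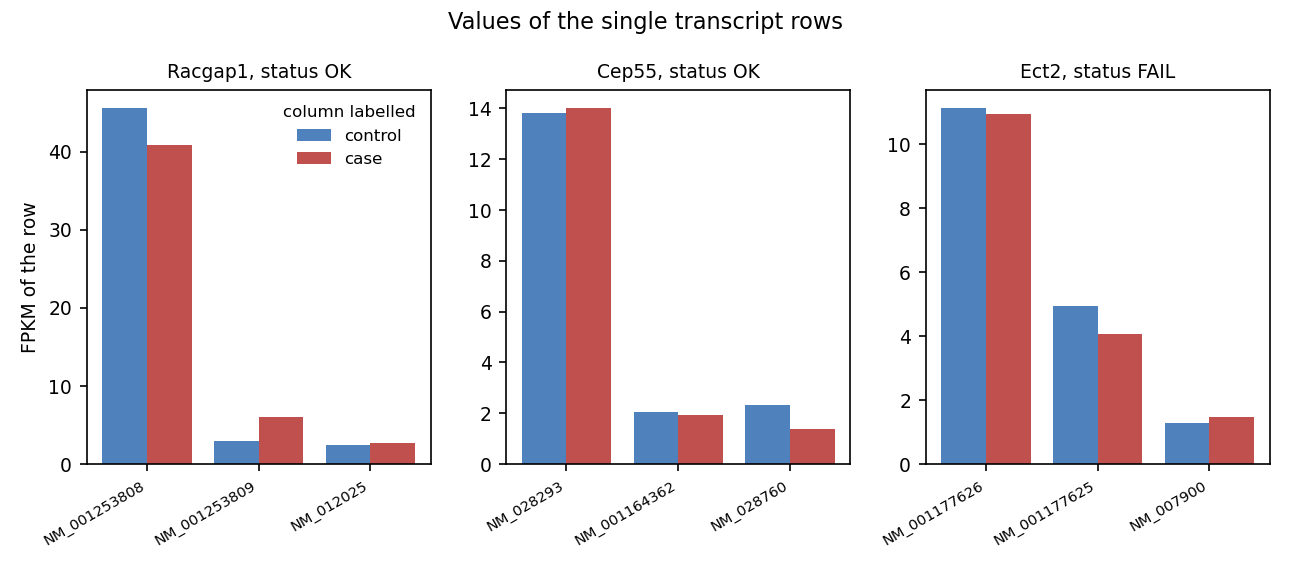
FPKM of each transcript row of Racgap1, Cep55 and Ect2 in the control column (blue) and the case column (red), 1 panel per gene with its own axis from 0; each bar is 1 pooled value without error. In Racgap1 the main row is lower and NM_001253809 higher in the case column, at 5.97 against 2.96 FPKM.

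The other genes that act at the midzone, furrow and midbody were read from 4 lists with 67 genes in the table, of which 64 had a mean FPKM of at least 1. None of the 59 with a tested main row was called, and 0 had an unadjusted p under 0.05 in any tested row of the authors' deposited table. Their median difference was 0.05, with 43 higher and 21 lower in the case column, where 60.8% of all genes were higher. Counts past 1.2-fold were 5 higher and 2 lower, against 10.2% and 6.17% of all genes.

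Of 13 central spindle genes, 7 were higher and 6 lower, with a median of 0.0025 and a range from -0.17 to 0.18. Cdca8, a subunit of the chromosomal passenger complex that carries Aurora B, was at 40.8 and 41.4 FPKM, and its fellow subunit Incenp at 32.9 and 29.9 FPKM. Kif20a, the kinesin that brings this complex to the midzone, was at 34.9 and 35.9 FPKM. Arf6, a small GTPase that binds centralspindlin at the midbody, was at 33.9 and 32.3 FPKM.

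Of 18 contractile ring genes, 13 were higher and 5 lower, with a median of 0.06. The cytoplasmic actins Actb and Actg1 were at 862 and 835 FPKM and at 325 and 329 FPKM. The actin-binding proteins Pfn1 and Cfl1 were at 300 and 275 FPKM and at 234 and 223 FPKM. Of 13 septins, filament proteins of the furrow and of the bridge wall, 10 passed the filter on low values, with 7 higher, 3 lower and a median of 0.06. Sept2 was at 87.5 and 84.1 FPKM, Sept7 at 76.6 and 72.0 FPKM, Sept9 at 49.9 and 47.6 FPKM and Sept11 at 51.1 and 41.7 FPKM. Sept11 was 1.23-fold higher in the case column (the authors' deposited table, p = 0.234).

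Transcripts of the abscission machinery that TEX14 holds off were present in the same testis RNA, which does not show in which cells. Tsg101 was at 24.7 and 26.8 FPKM (the authors' deposited table, p = 0.670). Pdcd6ip, summed over 3 rows, was at 25.4 and 23.5 FPKM, and the p of its main row was 0.615 in the authors' deposited table. Both thus stood at a level per length close to that of Tex14 and above that of Cep55. In the whole list, 16 genes were higher and 7 lower, with a median of 0.04 and a range from -0.28 to 0.59. The widest difference was that of Chmp4c, at 4.24 and 2.49 FPKM, 1.70-fold higher in the case column (the authors' deposited table, p = 0.123). Of the ESCRT-III subunits that form the cutting filament, Chmp4b was at 99.8 and 91.9 FPKM, Chmp2a at 92.8 and 91.9 FPKM and Chmp1a at 54.4 and 61.2 FPKM. Ist1, an ESCRT-III-like regulator, was at 47.3 and 48.1 FPKM.

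**Figure D4:**
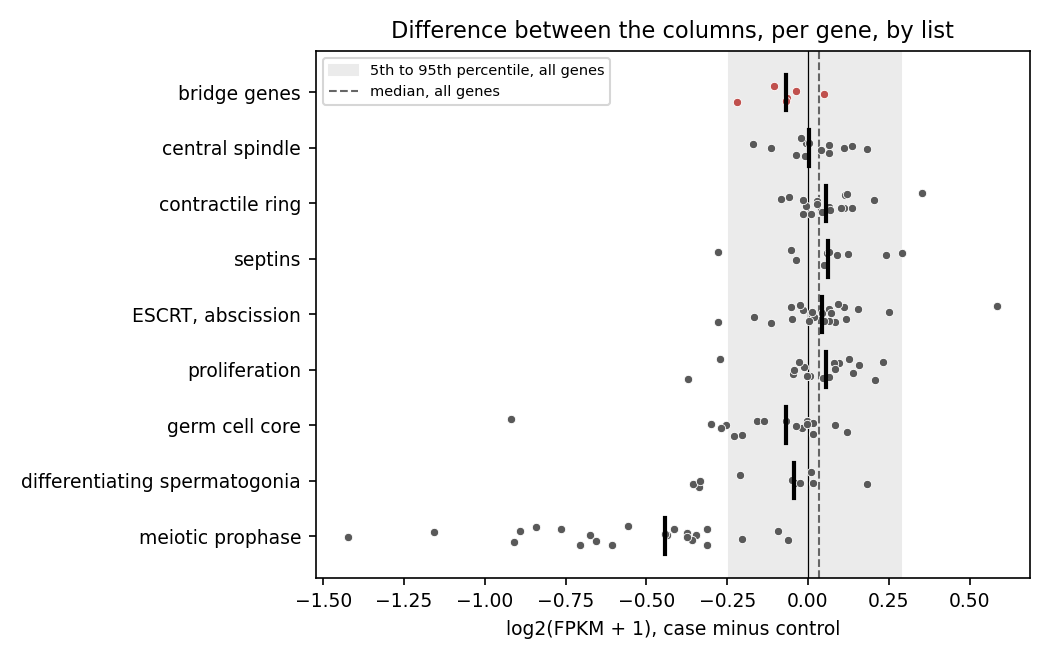
Difference of log2(FPKM + 1), case minus control, for each gene of 9 lists at a mean FPKM of 1 or more (points, spread vertically for sight only), with the median of each list as a black bar, the median of all genes dashed and their 5th to 95th percentile shaded. The bridge genes (red) all lie inside the shaded band, and the meiotic prophase genes lie to the left of 0.

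Marker genes of the cells in the sample are given as values beside the members, and their part in the member values was not tested. Apart from Lin28a, none of them was called in its main row. The counts by direction stand beside 60.8% of all genes higher and 39.2% lower in the case column. In such bulk RNA, fewer cells of a type and less RNA per cell cannot be told apart. Of 17 germ cell core genes, 13 were lower in the case column, with a median of -0.07 and summed levels of 761 and 900 FPKM. Without Tex101, a germ cell surface protein at 87.0 and 165 FPKM, the sums were 674 and 735 FPKM and the median was -0.05. All 23 meiotic prophase genes were lower, with a median of -0.44 and sums of 477 and 684 FPKM. Of the 21 tested, 7 had an unadjusted p under 0.05 in the authors' deposited table, and 0 were called. An unadjusted p under 0.05 was held by 1.28% of all tested rows. The axis gene Sycp3 was at 69.2 and 125 FPKM and Syce2, of the central element, at 58.3 and 62.2 FPKM. The differentiating spermatogonia list had a median of -0.04 with 7 of 10 lower, among them Stra8, needed for meiotic entry, at 68.1 and 86.3 FPKM. This list also holds Uchl1, which is not confined to differentiating spermatogonia, at 259 and 264 FPKM. Undifferentiated spermatogonia genes other than Lin28a had a median of 0.04 with 7 of 11 higher and sums of 97.8 and 95.4 FPKM, among them Foxo1 at 19.1 and 18.0 FPKM.

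Proliferation genes, which all dividing cells express, had a median of 0.06 with 11 of 18 higher, where 60.8% of all genes were. Their sums were 526 and 524 FPKM. Top2a was at 77.3 and 93.6 FPKM and Cdc20 at 56.9 and 52.0 FPKM. Sertoli genes had a median of 0.05 with 9 of 15 higher and sums of 5656 and 5760 FPKM, led by Clu at 2028 and 2251 FPKM and Cst12 at 1061 and 1150 FPKM. Single genes of this list lay on both sides. Rhox5 was at 8.90 and 19.3 FPKM (the authors' deposited table, p = 0.0254), and Cst9 at 596 and 416 FPKM (the authors' deposited table, p = 0.0593). Leydig genes were higher in 10 of 11, with sums of 492 and 407 FPKM, and included Hsd3b1 at 109 and 92.5 FPKM and Insl3 at 99.6 and 76.9 FPKM. Hsd17b3 was at 38.7 and 24.6 FPKM (the authors' deposited table, p = 0.0302). Peritubular and stromal genes were higher in 13 of 13, with sums of 1113 and 967 FPKM, and included Acta2 at 318 and 274 FPKM and Dcn at 168 and 165 FPKM. Endothelial genes were higher in 8 of 8, with sums of 46.0 and 38.0 FPKM, and included Cdh5 at 16.2 and 14.0 FPKM and Eng at 9.76 and 7.73 FPKM. Macrophage genes were lower in 8 of 9, with sums of 92.0 and 109 FPKM, and included Lyz2 at 31.9 and 45.6 FPKM and C1qc at 13.3 and 15.7 FPKM. The exception, Cd74, was at 6.22 and 2.04 FPKM, 3.05-fold higher in the case column, and the p of its main row was 0.00524 in the authors' deposited table. None of the markers in the table was listed at 0. Besides Lin28a and the 7 meiotic genes, the markers whose main row had an unadjusted p under 0.05 were 1 each in the germ cell core (Tex101), Sertoli (Rhox5), Leydig (Hsd17b3) and macrophage (Cd74) lists, by the authors' deposited table. Rhox5, Cst9, Hsd17b3 and Cd74 are named here with their values known, not by the naming rule.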

How the data were processed

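Testis RNA of 6 samples (3 Lin28a knockout, 3 wild type) was sequenced. Reads were aligned with TopHat2 version 2.0.9 to mm10, per the submitters' processing notes. What the authors deposited, per the file headers, is 1 FPKM value per group and RefSeq transcript with a log2 ratio, p-value, q-value and status. Which program made them is not stated in those sources. The deposited ratio set control over case (largest deviation 5.01e-05 in tested rows) and was replaced by case minus control. Low values showed no steps from which reads could be recovered. The deposited q-values matched a Benjamini-Hochberg adjustment over the 13629 rows of status OK (largest deviation 2.26e-06). The 2896 rows of status FAIL were read as untested.

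Rows were assigned to genes by the names in the table, where 682 rows carry several names, and FPKM was summed per gene. Differences were taken as log2(FPKM + 1), which understates the change of low genes, over genes at a mean FPKM of 1 or more. Calls are the authors' q under 0.05 per row, and list genes were counted by the row with the highest FPKM. Starts were raised by 1, because they were read as counting from 0. Members and lists were chosen with earlier results of these data known, and some lists share genes. Named genes were all members, Lin28a, Lin28b, Kif23, Tsg101, Pdcd6ip and pathway genes with p under 0.05. The 4 most abundant genes of each pathway list and the 2 most abundant of each marker list were also named. Ddx4 was added as a reference for ratios after its values were seen. Taf4b, Stk31, Mov10l1, Rnf17 and Chmp4c were likewise named with their values known. Promoter sequences are RefSeq's. Python 3.11.15, pandas 2.3.3, NumPy 2.4.6 and SciPy 1.17.1 were used, and the scaling and adjustment steps were tested on simulated data.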

Additional observations from a re-analysis of the deposited data

How the results depend on the processing

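The differences of the members changed little with the processing, among the alternatives run. Of 41 values under a smaller or no pseudocount, 2 rescalings, the highest row only, tested rows only and RefSeq symbols, 40 stayed within 0.1 on the log2 scale, and the median over the members ran from -0.10 to -0.06. Racgap1 moved to -0.15 with its highest row only, since the other rows were left out, and Cep55 turned to 0.019 there. Scaling by the median ratio over tested rows divided the case column by 1.02, a shift of -0.036 in log2 FPKM. Against 0 member rows called, 0 were called at q under 0.10 or after adjustment over rows at a mean FPKM of at least 1. An unadjusted p under 0.05 was held by 1 row, beside 1.28% of all tested rows. With no test, 2 rows passed 1.2-fold and also 1.5-fold. They were minor rows of Cep55 (1.66-fold lower in the case column) and Racgap1 (2.02-fold higher). The share of all tested rows past these folds was not computed, so this count cannot be read as a result about the members. The central spindle median of 0.0025 turned to -0.0018 at a mean FPKM of at least 5, -0.032 after median-ratio scaling and -0.0061 with the highest row only, all close to 0. The meiotic prophase median moved to -0.57 with a pseudocount of 0.1, and the remaining 71 of 72 list values stayed within 0.1, including those without Tex101 or Lin28a, chosen after seeing the data. Leaving out each replicate needs values per library and was not run. No paired analysis was possible because the table pools each group into 1 column. No interval from sequencing depth can be given.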
